A study of Rattus norvegicus albus with 6 samples.

Results

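The control arrays of a Wnt inhibition series on rat hepatic stellate cells give a picture of these cells in culture without any Wnt inhibitor. They are the arrays labelled as the control for a treatment, 3 of the 6 arrays of the series, and no value of a treated array is given. The treated arrays had a part only in choosing the probe set of the 497 genes that have several. The cells were primary stellate cells kept for 7 days on plastic in low glucose DMEM with 10% serum, which activates them. The Ad.GFP array held cells given an adenovirus for green fluorescent protein at a multiplicity of infection of 200, first with 5% serum for 24 h and then serum-free for 24 h. The arrays called vehicle for ICG-001 and vehicle for FJ9 held cells given the vehicle of that compound for 24 h without serum. All 3 thus share culture activation and a final serum-free day, while virus, vehicle and animals differ or may differ between them. Each array held RNA pooled from 3 to 4 rats. The labels name the organism Rattus norvegicus albus, and nothing in the labels states the strain, sex or age of the rats or whether pools share animals.

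Hepatic stellate cells are the pericytes of the liver sinusoid and store vitamin A as retinyl esters in lipid droplets. After injury, and on plastic, they lose these droplets and turn into contractile myofibroblasts that lay down fibrillar collagen. PDGF is a strong mitogen for them, and TGF-β induces their matrix genes.

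Levels are RMA values on the log2 scale, 1 for each of 14322 named genes and array. The 3 arrays stand for 3 conditions with 1 pool each, so a gene is given with its lowest and highest array. No standard deviation is given for a gene, and no test was possible. Ranks and percentiles order signals, not molecules, because the probes of different genes bind with different strength. No detection calls were used. In their place stood a yardstick, the 95th percentile of 1237 olfactory and vomeronasal receptor genes on the same array. It lay at 6.76 on Ad.GFP, 7.23 on the vehicle for ICG-001 and 6.90 on the vehicle for FJ9. A gene is called above the yardstick where it exceeded that value on all 3 arrays. This held for 7943 genes, 55.5% of all named genes. Each list count below is to be read beside that share, and each count in the top 25% by mean level beside 25.0%.

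The yardstick is a description and not a detection test. Among 53 measured genes typical of other organs, 12 were above it too, so a value above it does not by itself show a transcript. With the 99th percentile of the receptor genes, 5 of the 53 were above. The 95th percentile of the genes of other organs, called the stricter yardstick here, lay between 8.43 and 9.42 on the 3 arrays. Above it were 3101 genes, and 2 of the 53 that set it. Where the stricter yardstick or another percentile moves the count of a list by over 1.5 times, the other count is given too. The receptor genes had a median level of 5.43, and all named genes had one of 7.64. Over the 14322 genes the arrays correlated at r = 0.970 (Ad.GFP and vehicle for ICG-001), 0.971 (Ad.GFP and vehicle for FJ9) and 0.982 (both vehicles), a description across genes that share their probes.

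**Figure D1:**
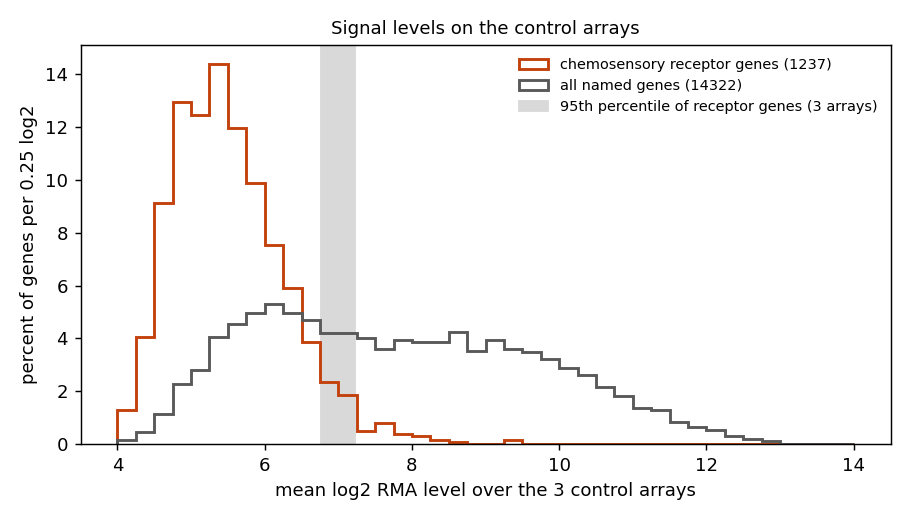
Histogram of the mean log2 RMA level over the 3 control arrays for 1237 chemosensory receptor genes and for all 14322 named genes, as percent of genes per bin of 0.25. The grey band spans the yardstick of the 3 arrays, 6.76 to 7.23, and 55.5% of all named genes were above it on every control array.

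The markers used here for culture-activated stellate cells gave signals above the yardstick on every control array. Whether they set stellate cells apart from other matrix-producing cells was not tested. All 6 markers, Col1a1, Col1a2, Des, Pdgfrb, Lrat and Timp1, were above the yardstick, and all 6 were in the top 25% of named genes by mean level (25.0% of all named genes). Col1a1, a chain of type I collagen, read 12.98 on Ad.GFP, 12.96 on the vehicle for ICG-001 and 12.80 on the vehicle for FJ9, and its mean had rank 13 among named genes. Col1a2, its partner chain, read 12.61 on Ad.GFP, 12.50 on the vehicle for ICG-001 and 12.42 on the vehicle for FJ9. Pdgfrb, the PDGF receptor of pericytes, read 12.55 on Ad.GFP, 12.46 on the vehicle for ICG-001 and 12.42 on the vehicle for FJ9. Timp1, which blocks matrix metalloproteinases, read 12.50 on Ad.GFP, 12.32 on the vehicle for ICG-001 and 12.20 on the vehicle for FJ9. Each of these 4 genes spanned at most 0.30 over the arrays.

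The remaining markers varied more. Lrat, the enzyme that makes retinyl esters, read 11.96 on Ad.GFP, 11.46 on the vehicle for ICG-001 and 10.52 on the vehicle for FJ9, with a mean at percentile 96.4 of named genes. Des, the intermediate filament desmin used to identify rat stellate cells, read 9.17 on Ad.GFP, 10.17 on the vehicle for ICG-001 and 9.58 on the vehicle for FJ9, with a mean at percentile 80.5. Lrat was highest on Ad.GFP, where Des was lowest. Acta2, the usual marker of activated stellate cells, lacked a probe set of its own in the annotation used and was not analysed here.

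Markers of the other liver cells mostly lay under the yardstick. Of 9 measured hepatocyte markers, 1 was above the yardstick, the serum glycoprotein gene Ahsg (8.03, 7.69 to 8.56). Alb, the gene of serum albumin, read 4.99 on Ad.GFP, 7.10 on the vehicle for ICG-001 and 6.13 on the vehicle for FJ9, under the yardstick on each. The hepatocyte transcription factor gene Hnf4a read 6.67 (6.49 to 6.97). The count was 2 with the 90th percentile of the receptor genes and 0 with the stricter yardstick. In bulk RNA, fewer cells of a type and less RNA per cell cannot be told apart, and the part of other cells in any level below was not tested.

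Of 12 macrophage and Kupffer cell markers, 2 were above the yardstick. They were the lipopolysaccharide co-receptor Cd14 (11.30, 11.12 to 11.63) and the lysosomal gene Cd68 (8.22, 7.83 to 8.44), and stellate cells are known to use Cd14 as well. The Kupffer cell genes Clec4f, Vsig4, Marco and Cd163 were under it on every array, with Clec4f at 5.62 (4.99 to 5.94), Vsig4 at 6.08 (5.69 to 6.33) and Marco at 6.54 (6.30 to 6.92). Adgre1, which encodes the macrophage protein F4/80, read 7.03 on Ad.GFP, 4.84 on the vehicle for ICG-001 and 4.96 on the vehicle for FJ9, above the yardstick on Ad.GFP alone. The pan-leukocyte gene Ptprc read 6.53 (6.19 to 6.72). The count of this list was 4 with the 90th percentile of the receptor genes, 1 with the 99th and 1 with the stricter yardstick. Without the vehicle for ICG-001, the array with the highest yardstick, 4 macrophage markers were above, the added ones being Lyz2 (8.19 on Ad.GFP, 7.16 on the vehicle for ICG-001 and 8.14 on the vehicle for FJ9) and Csf1r (6.96 on Ad.GFP, 6.90 on the vehicle for ICG-001 and 7.33 on the vehicle for FJ9).

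Of 11 listed endothelial markers, 5 were measured. The receptor genes Tek (7.40) and Tie1 (7.28) were just above the yardstick. The transcription factor gene Erg exceeded it on Ad.GFP and on the vehicle for FJ9 (7.08 to 8.28). Cdh5, the endothelial cadherin, read 5.43 (4.57 to 5.86) and Lyve1, of sinusoidal and lymphatic endothelium, 6.10 (5.73 to 6.33). Of 8 listed cholangiocyte markers, 4 were measured and 0 were above, with the cytokeratin gene Krt19 at 6.50 (6.30 to 6.66). The list of 8 neutrophil and mast cell markers also had 0, with S100a8 at 5.19 and S100a9 at 4.99. Of 9 lymphocyte markers, Cd79b of the B cell receptor was above (7.84, 7.47 to 8.31). Cd3e of the T cell receptor complex read 6.92 (6.79 to 7.04), above the yardstick on Ad.GFP and on the vehicle for FJ9. Without Ad.GFP, 1 neutrophil and mast cell marker and 2 lymphocyte markers were above. Without the vehicle for ICG-001, 2 lymphocyte markers were, the added one being Cd3e. With the 99th percentile of the receptor genes as with the stricter yardstick, 0 endothelial and 0 lymphocyte markers were above, and with the 90th percentile 1 cholangiocyte marker and 1 neutrophil and mast cell marker.

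**Figure D2:**
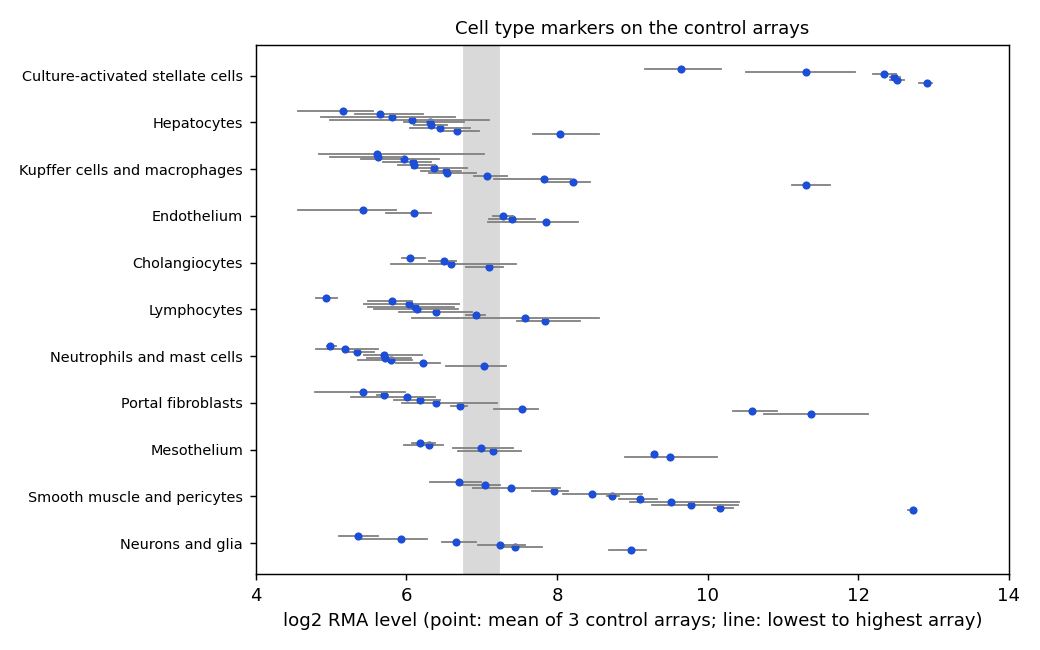
Log2 RMA level of each measured marker gene (point, mean of the 3 control arrays; line, lowest to highest array), grouped by cell type, with the yardstick of 6.76 to 7.23 as a grey band. All 6 stellate cell markers lie right of the band, and 1 of 9 hepatocyte markers and 2 of 12 macrophage markers exceeded the yardstick on all 3 arrays.

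The marker lists of other mesenchymal cells were mixed. Of 9 portal fibroblast markers, 3 were above the yardstick. Eln, the gene of elastin, read 12.12 on Ad.GFP, 11.24 on the vehicle for ICG-001 and 10.75 on the vehicle for FJ9. Mfap4 of elastic fibres read 10.58 (10.33 to 10.92). Both are genes that matrix-producing cells of other kinds also use. The third was Pi16 at 7.53 (7.17 to 7.74). Thy1, a surface protein used to tell portal fibroblasts from stellate cells, read 6.18 (5.84 to 6.44), and Fbln2, Entpd2, Dpt and Cd34 averaged 6.00, 6.71, 5.70 and 5.43, each under the yardstick on all arrays.

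Mesothelial markers were divided too, with 2 of 6 above the yardstick. Wt1, a transcription factor of mesothelium and of the developing liver mesenchyme, read 9.28 (9.25 to 9.30), and the membrane glycoprotein gene Gpm6a 9.49 (8.90 to 10.13). Msln, of the mesothelial surface, read 6.68 on Ad.GFP, 7.52 on the vehicle for ICG-001 and 7.24 on the vehicle for FJ9, above the yardstick on both vehicle arrays. The epithelial keratin genes Krt8 and Krt18 averaged 6.19 and 6.30. Without Ad.GFP, 4 mesothelial markers were above, the added ones being Msln and Upk1b. The count was also 4 with the 90th percentile of the receptor genes, and 1 with the stricter yardstick.

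Smooth muscle and pericyte genes were above the yardstick in 9 of 11 cases, and above the stricter one in 2. Tagln, an actin-binding protein of smooth muscle and myofibroblasts, read 12.73 (12.66 to 12.77). Abcc9 and Kcnj8, which form a potassium channel of pericytes, averaged 10.17 and 9.79. Rgs5, a G protein regulator of pericytes, read 10.41 on Ad.GFP, 8.96 on the vehicle for ICG-001 and 9.17 on the vehicle for FJ9, highest on Ad.GFP. Cnn1, a calponin of differentiated smooth muscle, read 8.18 on Ad.GFP, 8.08 on the vehicle for ICG-001 and 9.13 on the vehicle for FJ9, highest on the vehicle for FJ9. The smooth muscle myosin gene Myh11 was close to the yardstick (7.39, 6.89 to 8.03), and Notch3 (6.70) and the pericyte proteoglycan gene Cspg4 (7.05) did not exceed it on all arrays.

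Of 6 measured markers of neurons and glia, 3 were above (1 with the 99th percentile of the receptor genes and 0 with the stricter yardstick), with the vesicle gene Syp at 8.98 (8.69 to 9.18). Gfap, an intermediate filament of astrocytes that also marks quiescent rat stellate cells, was under the yardstick on every array (5.93, 5.35 to 6.27).

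The highest signals of the control arrays belonged to genes of the cytoskeleton, of translation and of the secreted matrix. Actg1, the gene of cytoplasmic γ-actin, stood first with 13.31 on Ad.GFP, 13.46 on the vehicle for ICG-001 and 13.53 on the vehicle for FJ9. It was followed by the glycolytic enzyme gene Gapdh (13.29), the collagen-binding glycoprotein gene Sparc (13.21), the integrin β1 chain gene Itgb1 (13.19) and the chaperone gene Hspa8 (13.06). Among the 50 highest genes, 5 belonged to the matrix lists, namely Sparc, Bgn, Col1a1, Prelp and Dcn, a share of 10.0% where the matrix lists make up 0.559% of all named genes. Cytosolic ribosomal protein genes made up 8 of the 50, 16.0% where they make up 0.545% of all named genes, led by Rpl30 (13.02) and Rps4x (12.94). The contractile and cytoskeletal list gave 4, Actg1, Actb (12.88), the intermediate filament gene Vim (12.85) and Tagln. Actin genes and ribosomal protein genes have near-identical copies in the genome, so their probes may share signal. Some high genes also stand on the highest of many probe sets, such as Gapdh (16) and Hspa8 (8), where Sparc and Col1a1 have 1. With the mean of all probe sets, 44 of the 50 stayed among the 50 highest.

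Further secreted proteins stood among the 50 highest. Igfbp7, which binds insulin-like growth factors, averaged 12.84, the follistatin-like Fstl1 12.81, galectin-1 (Lgals1) 12.85 and the growth factor Igf1 12.64. The gelatinase Mmp2 averaged 12.56, and Mfge8, which bridges integrins and apoptotic cells, 12.52. Membrane proteins among the 50 included the tetraspanins Cd81 (12.94) and Tspan7 (12.69), the amyloid precursor App (12.78) and Il6st, the shared signalling chain of the interleukin-6 family receptors (12.56). B2m of MHC class I averaged 12.93, the ferritin light chain gene Ftl1 12.73 and the elongation factor gene Eef1a1 12.93.

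These high signals were close on the 3 arrays. The median range over the arrays was 0.12 for the 50 highest genes and 0.45 for all named genes, and 0 of the 50 spanned 1.5-fold, where 4843 of all named genes did (33.8%). Of the 50 highest probe sets on the arrays, 21 are unnamed here, so the order covers named genes alone.

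Fibrillar collagen genes gave high signals in most cases. Of 10 measured, 9 were above the yardstick and 7 in the top 25%, with a median level of 11.10 where all named genes had 7.64. Col3a1, the chain of type III collagen, read 12.58 on Ad.GFP, 12.38 on the vehicle for ICG-001 and 12.49 on the vehicle for FJ9. Col5a2 and Col5a1, of the type V collagen that starts type I fibrils, averaged 11.77 and 11.40. Col5a3 of the same type was lowest on Ad.GFP, with 7.27 on Ad.GFP, against 8.59 on the vehicle for ICG-001 and 8.20 on the vehicle for FJ9.

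Some fibrillar collagen genes best known from cartilage were also above the yardstick. Col2a1 read 10.89 on Ad.GFP, 11.06 on the vehicle for ICG-001 and 10.45 on the vehicle for FJ9. Col11a1, which joins it in cartilage fibrils, read 9.86 on Ad.GFP, 10.26 on the vehicle for ICG-001 and 9.73 on the vehicle for FJ9. Col27a1 read 9.64 on Ad.GFP, 9.30 on the vehicle for ICG-001 and 8.36 on the vehicle for FJ9. Col11a2 exceeded the yardstick on Ad.GFP and on the vehicle for ICG-001 but not on the vehicle for FJ9 (7.02, 6.71 to 7.24).

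Of 5 measured network and basement membrane collagen genes, 3 were above the yardstick and 2 in the top 25%. Col8a1, a short-chain collagen, read 12.07 (11.98 to 12.20) and Col4a1, a main type IV chain, 11.80 (11.56 to 11.96). Col4a4 averaged 7.24. Col4a3, which serves the kidney glomerulus, averaged 6.53 and Col10a1, of hypertrophic cartilage, 6.40, both under the yardstick on every array.

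All 9 other measured collagen genes were above the yardstick (5 with the 99th percentile of the receptor genes and 2 with the stricter yardstick), and 2 of them, which coat fibrils, were in the top 25%. Col14a1 read 12.03 (11.87 to 12.28). Col12a1 read 10.92 on Ad.GFP, against 11.99 on the vehicle for ICG-001 and 12.00 on the vehicle for FJ9, so that Ad.GFP lay apart from both vehicles. The rest averaged from 8.75 for Col16a1 down to 7.33 for Col23a1, with Col17a1 at 8.46, Col9a1 at 8.27, Col13a1 at 7.86, Col9a2 at 7.78 and Col7a1 at 7.47. The chains of type VI collagen and several further collagen genes, such as Col4a2 and Col18a1, had no probe set with their symbol alone and were not analysed here.

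**Figure D3:**
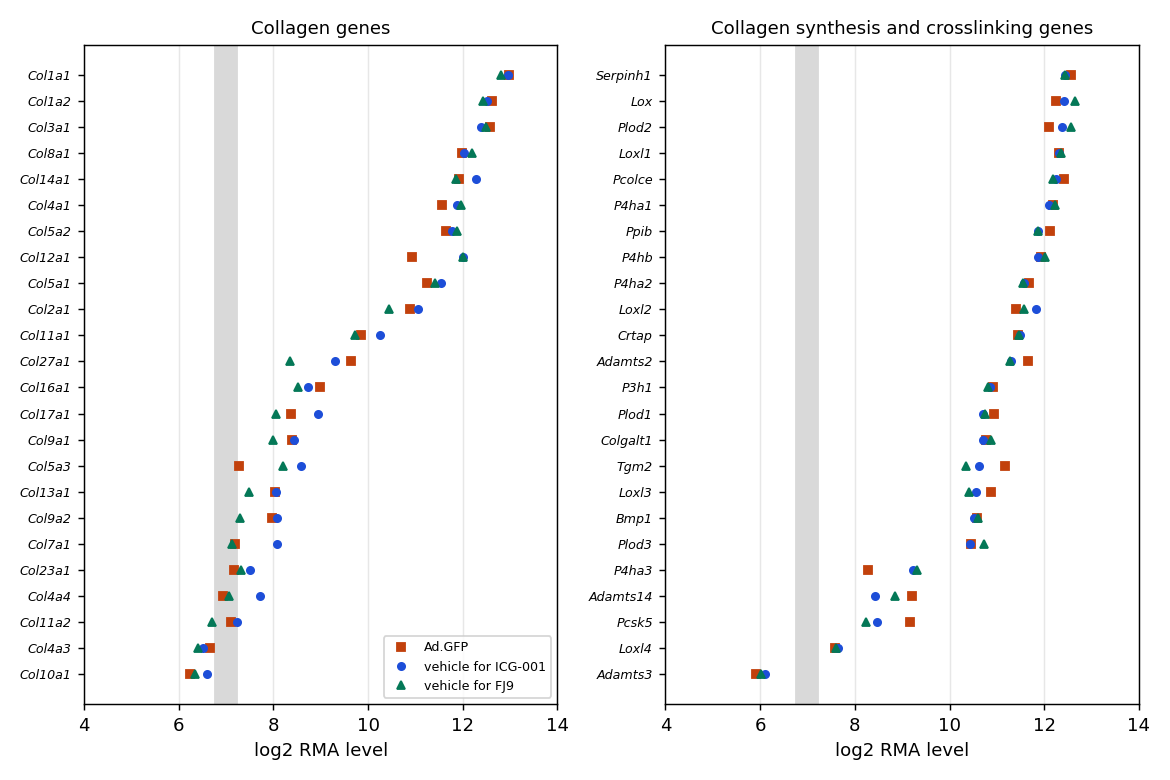
Log2 RMA level on each control array for the measured collagen genes (left) and for 24 genes of collagen synthesis and crosslinking (right), ordered by mean, with the yardstick of 6.76 to 7.23 as a grey band. Squares are Ad.GFP, circles the vehicle for ICG-001 and triangles the vehicle for FJ9. The symbols of Col1a1, Col1a2 and Col3a1 nearly coincide, while those of Col12a1, Col27a1 and Col5a3 lie 1.07, 1.28 and 1.33 apart.

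Genes that fold, modify and crosslink collagen were high as a group. Of 24 measured, 23 were above the yardstick and 19 in the top 25%, with a median of 11.14. The collagen chaperone gene Serpinh1 read 12.49 (12.45 to 12.56). The lysyl oxidase genes Lox and Loxl1, whose products start crosslinks, read 12.43 (12.24 to 12.64) and 12.32 (12.31 to 12.34). Plod2, which hydroxylates telopeptide lysines, read 12.10 on Ad.GFP, 12.38 on the vehicle for ICG-001 and 12.56 on the vehicle for FJ9. Pcolce, which speeds removal of the C-terminal propeptide, averaged 12.28, the prolyl hydroxylase chain genes P4ha1 and P4hb 12.17 and 11.94, and the prolyl isomerase gene Ppib 11.95. Adamts3, a procollagen protease, was the single member under the yardstick (6.01, 5.91 to 6.10).

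Matrix glycoprotein and elastic fibre genes were above the yardstick in 27 of 33 cases, with 21 in the top 25% and a median of 10.44. Sparc, which binds collagen, read 13.28 on Ad.GFP, 13.17 on the vehicle for ICG-001 and 13.17 on the vehicle for FJ9. The fibrillin gene Fbn1 read 12.50 (12.26 to 12.78), and Ltbp1, which holds latent TGF-β in the matrix, 12.17 (12.02 to 12.26). Fibronectin, Fn1, read 11.96 on Ad.GFP, against 12.68 on the vehicle for ICG-001 and 12.76 on the vehicle for FJ9. Ccn2 and Ccn1, matricellular genes that respond to mechanical signals, read 12.04 (11.61 to 12.26) and 11.56 (11.00 to 11.88). These 3 genes were lowest on Ad.GFP. Fbln5, which organises elastin, averaged 11.68. Under the yardstick on all arrays were Vtn (6.30), best known as a hepatocyte product, Tgfbi (6.01) and Efemp1 (5.67).

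Proteoglycan genes included both very high and very low signals. Of 23 measured, 15 were above the yardstick and 11 in the top 25%. The small leucine-rich proteoglycan genes Bgn (12.93, 12.88 to 12.97), Prelp (12.80, 12.73 to 12.84), Dcn (12.59, 12.56 to 12.64) and Ogn (12.15, 11.94 to 12.36), whose products bind collagen fibrils, led the list. Aspn of the same family read 12.12 on Ad.GFP, 11.30 on the vehicle for ICG-001 and 11.87 on the vehicle for FJ9. Fmod, also of this family, read 5.94 (5.57 to 6.31). The cell-surface proteoglycan genes Sdc2, Gpc4 and Sdc3 averaged 11.77, 11.45 and 11.29. The hyaluronan synthase genes Has1 and Has3 averaged 6.00 and 5.94 and the brain proteoglycan gene Ncan 6.31, under the yardstick on all arrays.

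Among 29 measured matrix protease genes, 18 were above the yardstick, 62.1% where 55.5% of all named genes were. In the top 25% were 15. Mmp2 read 12.72 on Ad.GFP, 12.44 on the vehicle for ICG-001 and 12.53 on the vehicle for FJ9. Mmp14, its membrane-bound activator, read 11.38 on Ad.GFP, 11.26 on the vehicle for ICG-001 and 11.58 on the vehicle for FJ9. The cathepsin genes Ctsb and Ctsl averaged 12.37 and 12.02, and Plat, the tissue plasminogen activator gene, 11.60. At the low end Mmp13, the main interstitial collagenase of rodents, read 4.63 (4.57 to 4.66), Mmp9 5.45 (4.89 to 6.22), Mmp10 5.61 (5.38 to 5.90) and Fap, a protease of activated fibroblasts, 5.17 (4.68 to 5.58).

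All 13 measured protease inhibitor genes were above the yardstick, and 10 were in the top 25%. Besides Timp1, these included Timp2 (11.83, 11.77 to 11.93), the broad protease trap A2m (11.73, 11.53 to 12.11), the thrombin and urokinase inhibitor Serpine2 (11.67), cystatin C (Cst3, 11.66) and the C1 inhibitor gene Serping1 (11.53). Reck, a membrane-anchored inhibitor of metalloproteinases, averaged 10.88. Timp3, which stays bound to matrix, read 7.99 on Ad.GFP, 8.46 on the vehicle for ICG-001 and 9.28 on the vehicle for FJ9.

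Contractile and cytoskeletal genes were above the yardstick in 31 of 32 cases, with 25 in the top 25% and a median of 11.50. The actin crosslinker gene Flna read 12.06 on Ad.GFP, 12.52 on the vehicle for ICG-001 and 12.57 on the vehicle for FJ9. Cald1, which regulates contraction of smooth muscle, read 11.98 on Ad.GFP, 12.30 on the vehicle for ICG-001 and 12.36 on the vehicle for FJ9. The myosin light chain gene Myl12a read 11.92 on Ad.GFP, 12.20 on the vehicle for ICG-001 and 12.42 on the vehicle for FJ9. These 3 were lowest on Ad.GFP. Tagln2 averaged 12.34 and the intermediate filament gene Nes, of cells that divide or regenerate, 8.61 (8.16 to 9.07). Synm, an intermediate filament of muscle, exceeded the yardstick on the vehicle for ICG-001 alone (6.78, 6.34 to 7.38).

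PDGF and TGF-β family receptor genes were above the yardstick in 11 of 16 cases, and 8 were in the top 25%. Pdgfra, the other PDGF receptor, read 10.74 on Ad.GFP, 10.21 on the vehicle for ICG-001 and 10.23 on the vehicle for FJ9, highest on Ad.GFP, and the receptor-like gene Pdgfrl averaged 8.15. Tgfbr1, the type I TGF-β receptor, read 9.59 on Ad.GFP, 9.62 on the vehicle for ICG-001 and 9.73 on the vehicle for FJ9. The co-receptor gene Tgfbr3 read 9.69 on Ad.GFP, 9.69 on the vehicle for ICG-001 and 9.56 on the vehicle for FJ9. Both spanned little, at 0.14 and 0.13. The BMP receptor genes Bmpr2 and Bmpr1a averaged 11.55 and 10.99, and the activin receptor family genes Acvr1, Acvr2a and Acvr1b 10.10, 9.41 and 8.50. Bambi, a decoy that dampens TGF-β signalling, averaged 8.86. Bmpr1b (5.77), Amhr2 (5.94), Acvr1c (6.41) and the endothelial Acvrl1 (6.77) were under the yardstick on every array, and Acvr2b (6.63) exceeded it on the vehicle for FJ9 alone. Tgfbr2 was not analysed here.

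Of 38 other growth factor receptor genes, 24 were above the yardstick (12 with the stricter yardstick), 63.2% where 55.5% of all named genes were. In the top 25% were 12, a share of 31.6%. Fgfr2 led with 12.31 on Ad.GFP, 12.20 on the vehicle for ICG-001 and 12.09 on the vehicle for FJ9. The Wnt receptor gene Ryk read 11.02 (10.99 to 11.05), and Ddr2, which binds fibrillar collagen, 11.02 (10.76 to 11.17). Axl, the receptor of Gas6, read 10.60 on Ad.GFP, 11.03 on the vehicle for ICG-001 and 11.13 on the vehicle for FJ9. Igf1r, the receptor of insulin-like growth factors, read 10.05 on Ad.GFP, 10.62 on the vehicle for ICG-001 and 10.68 on the vehicle for FJ9. Axl and Igf1r were lowest on Ad.GFP. Fgfr1, Nrp1 and the growth hormone receptor gene Ghr averaged 10.58, 10.16 and 10.09. Ntrk3 (5.21), Erbb4 (5.43), Alk (5.75) and Erbb3 (5.90) were under the yardstick on every array.

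Wnt receptors and co-receptors, the entry point of the pathway that the series inhibits, were above the yardstick in most cases. Of 13 measured genes of the Frizzled, LRP and LGR families with Smo, 12 were above and 8 in the top 25%, with a median of 10.32. Lrp5, a co-receptor that DKK-1 binds, read 10.76 on Ad.GFP, 10.42 on the vehicle for ICG-001 and 10.09 on the vehicle for FJ9. Lrp6, its relative with the same role, read 10.50 on Ad.GFP, 10.34 on the vehicle for ICG-001 and 10.17 on the vehicle for FJ9. Lrp1, an endocytic receptor, was lowest on Ad.GFP, with 10.52 on Ad.GFP, against 11.61 on the vehicle for ICG-001 and 11.15 on the vehicle for FJ9.

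Frizzled receptors bind the Wnt proteins themselves. Fzd8 read 11.26 on Ad.GFP, 10.96 on the vehicle for ICG-001 and 10.82 on the vehicle for FJ9. Fzd1 read 10.51 on Ad.GFP, 10.74 on the vehicle for ICG-001 and 10.77 on the vehicle for FJ9, lowest on Ad.GFP, where Fzd8 was highest. Fzd2 read 10.70 on Ad.GFP, 10.32 on the vehicle for ICG-001 and 10.32 on the vehicle for FJ9. Fzd4 averaged 10.32 (10.10 to 10.55) and Fzd6 10.14 (9.80 to 10.39), and the lower signals came from Fzd9 (8.56, 8.17 to 9.07) and Fzd5 (8.30, 8.14 to 8.54). Smo, the Frizzled relative that carries the Hedgehog signal, read 9.41 on Ad.GFP, 8.48 on the vehicle for ICG-001 and 8.83 on the vehicle for FJ9. The R-spondin receptor gene Lgr4 read 8.66 (8.62 to 8.72), and Lgr5, under the yardstick on every array, 5.29 (5.06 to 5.43). Fzd3, Fzd7, Fzd10 and Lgr6 were not analysed here.

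Integrin genes were above the yardstick in 9 of 18 cases (5 with the stricter yardstick), where 55.5% of all named genes were, and 6 were in the top 25%. The shared β chain gene Itgb1 read 13.06 on Ad.GFP, 13.24 on the vehicle for ICG-001 and 13.27 on the vehicle for FJ9. Itga1, a collagen-binding chain, read 11.58 on Ad.GFP, 12.05 on the vehicle for ICG-001 and 12.19 on the vehicle for FJ9. Itga2, another, read 8.45 on Ad.GFP, 9.87 on the vehicle for ICG-001 and 10.05 on the vehicle for FJ9. Both were lowest on Ad.GFP. Itgb5 averaged 11.54, Itga4 10.74, the fibronectin-binding chain gene Itga5 9.65 and the collagen-binding Itga11 8.38. The leukocyte chain genes Itgal (5.55) and Itgam (5.63) and also Itgb8 (5.47) and Itga10 (5.87) were under the yardstick on every array. Itgav and Itgb3 were not analysed here.

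**Figure D4:**
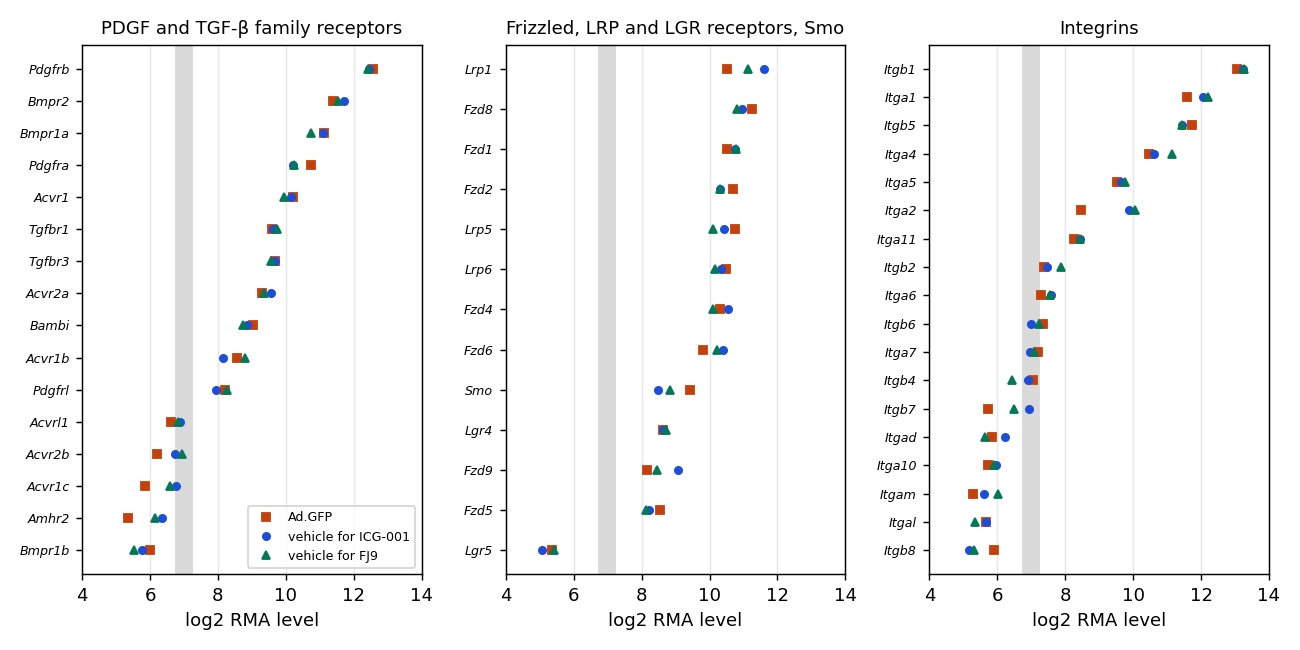
Log2 RMA level on each control array for PDGF and TGF-β family receptors, for Frizzled, LRP and LGR receptors with Smo, and for integrins, ordered by mean, with the yardstick of 6.76 to 7.23 as a grey band. Squares are Ad.GFP, circles the vehicle for ICG-001 and triangles the vehicle for FJ9. The yardstick was exceeded on all 3 arrays by 11 of 16, 12 of 13 and 9 of 18 genes.

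Receptors for vasoactive and lipid mediators were above the yardstick in 23 of 55 cases (8 with the stricter yardstick), 41.8% where 55.5% of all named genes were. In the top 25% were 9. F2r, the thrombin receptor, read 11.64 on Ad.GFP, 11.76 on the vehicle for ICG-001 and 12.08 on the vehicle for FJ9. Agtr1a, the angiotensin receptor, read 11.26 on Ad.GFP, 10.94 on the vehicle for ICG-001 and 11.06 on the vehicle for FJ9. The thromboxane receptor gene Tbxa2r averaged 11.00, the ATP-gated channel gene P2rx4 10.83, the sphingosine phosphate receptor gene S1pr2 10.04 and the prostacyclin receptor gene Ptgir 9.89. Ramp1 and Calcrl, which together form a receptor for the peptide CGRP, averaged 10.43 and 10.43. Agtr1b, the second rodent angiotensin receptor gene of this type, read 5.19 (4.58 to 5.72), and S1pr4, of lymphocytes, 5.42 (4.92 to 5.89). The endothelin receptor genes Ednra and Ednrb were not analysed here.

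Cytokine, chemokine and innate immune receptor genes were above the yardstick in 34 of 47 cases (19 with the stricter yardstick), with 21 in the top 25%. Il6st read 12.56 (12.51 to 12.65) and Osmr, which pairs with it to bind oncostatin M, 10.78 on Ad.GFP, 10.82 on the vehicle for ICG-001 and 11.34 on the vehicle for FJ9. Tnfrsf11b, the secreted decoy osteoprotegerin, read 12.46 (12.28 to 12.56). The interleukin receptor genes Il13ra1, Il1r1 and Il4r averaged 11.33, 11.18 and 11.09, and the TNF receptor gene Tnfrsf1a 10.99. The leukocyte receptor genes Ccr1 (4.49), Il7r (4.63), Cxcr2 (5.06) and Ccr2 (5.11) were under the yardstick on every array.

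Hedgehog and Notch genes were above the yardstick in 10 of 18 cases, 55.6% where 55.5% of all named genes were. The count was 6 with the 99th percentile of the receptor genes and 3 with the stricter yardstick. In the top 25% were 3 genes. Those were the Indian hedgehog ligand gene Ihh (10.92, 10.70 to 11.18), the Notch target Hes1 (10.22, 10.14 to 10.35) and the receptor gene Notch2 (10.12, 9.88 to 10.36). The Notch ligand gene Jag1 averaged 9.09 and Gli3, mainly a repressor of Hedgehog targets, 9.11. The activators Gli1 (6.39, 5.94 to 7.20) and Gli2 (6.35, 6.19 to 6.53) were under the yardstick on every array.

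Mesenchymal and stellate cell transcription factor genes were above the yardstick in 40 of 56 cases (24 with the stricter yardstick), with 30 in the top 25% and a median of 9.28. Ets1 read 11.39 (11.29 to 11.55). Tcf21, a factor of stellate cells and other visceral mesenchyme, read 11.64 on Ad.GFP, 11.11 on the vehicle for ICG-001 and 11.03 on the vehicle for FJ9, highest on Ad.GFP. Zeb2 averaged 10.81, the nuclear factor I genes Nfib and Nfix 10.88 and 10.63, and Wwtr1, which encodes the YAP relative TAZ, 10.65 (10.63 to 10.70). Smad7, the inhibitory Smad, read 10.69 (10.67 to 10.72). Tbx18 (5.35), Ebf1 (5.47), Msx1 (5.58) and Meox2 (5.77) were under the yardstick on every array.

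Chosen after their values were seen, the transcription factor genes Gata4, Hand2 and Lhx2 averaged 10.45, 10.07 and 9.28, and Twist1 and Prrx1 6.20 and 5.85. In the Hox family, whose members record position along the body axis, 9 of 21 measured genes were above the yardstick (0 with the stricter yardstick). This share was 42.9%, where 55.5% of all named genes were above. Hoxa5 (9.49, 9.16 to 9.76) and Hoxb3 (9.25, 9.15 to 9.34) led the family.

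Nuclear receptor genes were above the yardstick in 15 of 31 cases (4 with the stricter yardstick), 48.4% where 55.5% of all named genes were. In the top 25% were 4. Ppard, of fatty acid sensing, read 10.99 (10.92 to 11.05), the orphan receptor gene Nr2f2 10.91 (10.84 to 10.99) and the glucocorticoid receptor gene Nr3c1 10.31 (10.24 to 10.39). Nr1h4, the bile acid receptor FXR, read 11.10 on Ad.GFP, 10.43 on the vehicle for ICG-001 and 10.46 on the vehicle for FJ9. The retinoid receptor genes Rara and Rxrb averaged 9.21 and 8.63, and Rxrg 5.74. Pparg, which maintains the lipid-storing quiescent state, read 4.93 on Ad.GFP, 4.66 on the vehicle for ICG-001 and 5.14 on the vehicle for FJ9, with a mean at percentile 3.0. Ppara (5.65) and Nr5a2 (5.05), regulators in hepatocytes, were likewise under the yardstick on every array.

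Genes tied to quiescence, retinoids and lipid droplets did not form a uniform group. Of 41 measured, 27 were above the yardstick (13 with the stricter yardstick) and 14 in the top 25%, with a median of 8.12. The collectin genes Colec10 and Colec11 read 12.46 (12.27 to 12.69) and 11.40 (10.90 to 11.85). Dhrs3, which reduces retinaldehyde to retinol, read 12.26 on Ad.GFP, 12.11 on the vehicle for ICG-001 and 11.92 on the vehicle for FJ9. Reln, a secreted glycoprotein of stellate cells, averaged 11.94, Cygb, a globin that marks stellate cells, 11.64, and the ligand gene Bmp10 11.27 (10.80 to 11.67). Colec10, Colec11 and Dhrs3 were, like Lrat, highest on Ad.GFP and lowest on the vehicle for FJ9. Dhrs9 (5.12), Crabp2 (5.80) and Aldh1a1 (5.84), all of retinoid handling, were under the yardstick on every array.

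Secreted growth factors and their binding proteins were above the yardstick in 49 of 75 cases (26 with the stricter yardstick), with 31 in the top 25%. Igf1 read 12.71 on Ad.GFP, 12.56 on the vehicle for ICG-001 and 12.65 on the vehicle for FJ9. Gas6 read 12.29 on Ad.GFP, 12.09 on the vehicle for ICG-001 and 12.40 on the vehicle for FJ9. Tgfb3, a TGF-β ligand gene, read 12.12 (12.06 to 12.16). The lymphatic growth factor genes Vegfd and Vegfc read 11.74 (11.31 to 12.03) and 11.69 (11.55 to 11.80), and the angiopoietin-like gene Angptl2 averaged 11.86. Nog, an inhibitor of BMPs, averaged 5.45, Angptl4 5.61, Csf3 5.79 and Wnt5b 5.80, all under the yardstick on every array.

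Chemokine and cytokine genes were low as a group, with 10 of 35 above the yardstick, 28.6% (5 with the stricter yardstick), and a median of 6.04. The 6 in the top 25% included Cxcl12 (11.86, 11.63 to 12.07), a homing signal for leukocytes and progenitor cells, and Cxcl16 (11.76, 11.51 to 12.07). Ccl2, the monocyte attractant, read 11.60 on Ad.GFP, 10.29 on the vehicle for ICG-001 and 11.95 on the vehicle for FJ9. Ccl7, another monocyte attractant, read 9.88 on Ad.GFP, 8.04 on the vehicle for ICG-001 and 9.82 on the vehicle for FJ9. Both were lowest on the vehicle for ICG-001. Mif averaged 10.27, Il34, a ligand of the macrophage receptor Csf1r, 9.51, the alarmin Il33 9.50 and Il15 9.12. Cxcl9 (5.19) and Cxcl11 (5.22), attractants of T cells, Ccl21 (5.25) and Il10 (5.26) were under the yardstick on every array.

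Cell cycle genes were above the yardstick in 11 of 31 cases, 35.5%, with a median of 6.92. This count was 18 with the 90th percentile of the receptor genes, 6 with the 99th and 1 with the stricter yardstick. The 1 in the top 25% was Tyms, of thymidylate synthesis, at 10.11 (10.07 to 10.15). The DNA replication genes Mcm2, Mcm7 and Pcna read 8.70 (8.28 to 9.17), 8.60 (8.22 to 9.12) and 8.34 (8.21 to 8.49), and the ribonucleotide reductase gene Rrm2 8.67 (8.39 to 8.86). Foxm1, a driver of mitotic genes, averaged 8.64. The 4 lowest members of the list, all of mitosis, were under the yardstick on every array, with Cdk1 at 6.21 (5.52 to 6.77), Ube2c at 6.00, Bub1 at 5.77 and Bub1b at 5.62. Some mitotic genes passed the yardstick on some arrays, such as the cyclin gene Ccnb2, above on Ad.GFP alone, at 7.04 (6.83 to 7.17), named after its value was seen. Mki67 was not analysed here.

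Growth arrest and senescence genes were above the yardstick in 14 of 16 cases (9 with the stricter yardstick), with 9 in the top 25% and a median of 9.96. Cdkn1a, a cyclin-dependent kinase inhibitor that p53 induces, read 12.08 on Ad.GFP, 11.61 on the vehicle for ICG-001 and 11.89 on the vehicle for FJ9. Cdkn2b, another inhibitor of these kinases, read 11.50 on Ad.GFP, 11.88 on the vehicle for ICG-001 and 11.62 on the vehicle for FJ9. Gadd45b, a stress response gene, averaged 11.43, Mdm2, which degrades p53, 11.20, and Glb1, of the lysosomal galactosidase, 10.97. Cdkn1c exceeded the yardstick on Ad.GFP alone (6.43, 6.12 to 7.01).

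Adhesion, junction and caveolar genes were above the yardstick in 17 of 25 cases, with 14 in the top 25%. The neural adhesion molecule gene Ncam1, also used to identify stellate cells, read 11.90 on Ad.GFP, 11.98 on the vehicle for ICG-001 and 11.45 on the vehicle for FJ9. Cdh2, the N-cadherin gene, read 11.32 (11.24 to 11.37) and Cdh1, the E-cadherin gene of epithelia, 6.09 (5.85 to 6.22). The gap junction gene Gja1 read 11.66 (11.58 to 11.71), and Gjb2, a gap junction gene of hepatocytes, 5.66 (5.54 to 5.83). The tetraspanin genes Cd63 and Cd151 averaged 11.98 and 11.76.

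Of the gene families counted by symbol, all 78 cytosolic ribosomal protein genes were above the yardstick, with a median of 11.52. Keratin genes were above in 6 of 43 cases (12 with the 90th percentile of the receptor genes, 0 with the 99th and 0 with the stricter yardstick), all 6 of them outside the top 25%. Glutathione transferase genes, which detoxify reactive compounds, were above in 10 of 15 cases (4 with the stricter yardstick), led by Gsta1 (11.49, 11.27 to 11.68) and Gstp1 (11.40, 11.20 to 11.61).

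Genes with high signals spanned 1.5-fold over the control arrays less often than genes with low ones. Among genes above the yardstick, 1506 spanned 1.5-fold (19.0%) and 242 spanned 2-fold (3.05%). Among the genes not above it, 3337 spanned 1.5-fold (52.3%). In the highest 5% of genes by level, 39 of 717 spanned 1.5-fold (5.44%), with a median range of 0.22, and in the lowest 25% 1845 of 3580 did (51.5%), with a median range of 0.60.

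Ad.GFP, the array with virus, lay apart from both vehicles more often than either vehicle lay apart from the rest. Among genes above the yardstick, 228 were at least 1.5-fold higher on Ad.GFP than on both vehicles (2.87%) and 165 at least 1.5-fold lower (2.08%). For the vehicle for ICG-001 these counts were 71 higher (0.894%) and 39 lower (0.491%), and for the vehicle for FJ9 44 higher (0.554%) and 92 lower (1.16%). Virus, serum history, the 24 h with virus before the serum-free day, vehicle and pool cannot be told apart on this array.

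Of the members above the yardstick, some lists had more that spanned 1.5-fold than the 19.0% of all such genes. The count was 25 of 49 for secreted growth factors, 13 of 27 for quiescence and retinoid genes, 11 of 27 for matrix glycoproteins and 5 of 10 for chemokines and cytokines. It was 0 of 14 for growth arrest genes, 3 of 78 for ribosomal proteins and 1 of 11 for PDGF and TGF-β receptors. For collagen synthesis and crosslinking it was 4 of 23, near the share of all such genes. The lists differ in level, and the 19.0% is not matched for it. Of all named genes, 11.9% spanned 1.5-fold between percentiles 75 and 95, and 5.44% in the highest 5%. The median percentile was 95.3 for the collagen synthesis list and 97.4 for ribosomal proteins. The list counts are over 3 unlike conditions and were not tested.

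The 15 genes above the yardstick with the widest ranges differed in which array was highest. Scd and Fads1, enzymes that desaturate fatty acids, were lowest on the vehicle for FJ9 and highest on the vehicle for ICG-001. Scd read 9.65 on Ad.GFP, 11.09 on the vehicle for ICG-001 and 8.26 on the vehicle for FJ9. Fads1 read 10.29 on Ad.GFP, 10.92 on the vehicle for ICG-001 and 8.61 on the vehicle for FJ9. Igfbp5, which binds insulin-like growth factors, averaged 9.37 with a range of 2.49. The retinaldehyde dehydrogenase gene Aldh1a3 read 9.87 on Ad.GFP, 8.90 on the vehicle for ICG-001 and 7.83 on the vehicle for FJ9. Shisa3, an inhibitor of Wnt and FGF receptors, read 9.89 on Ad.GFP, 9.06 on the vehicle for ICG-001 and 7.96 on the vehicle for FJ9. Megf6 read 8.94 on Ad.GFP, 8.34 on the vehicle for ICG-001 and 7.00 on the vehicle for FJ9. These 4 were highest on Ad.GFP and lowest on the vehicle for FJ9.

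Among the 15, Mx2, Isg15, Lbp and Vcam1 were lowest on the vehicle for ICG-001 and highest on Ad.GFP. The interferon-induced gene Mx2 read 10.99 on Ad.GFP, 8.32 on the vehicle for ICG-001 and 10.47 on the vehicle for FJ9. Isg15, a ubiquitin-like interferon target, read 10.78 on Ad.GFP, 8.73 on the vehicle for ICG-001 and 9.63 on the vehicle for FJ9. Lbp, which carries lipopolysaccharide, read 10.46 on Ad.GFP, 8.07 on the vehicle for ICG-001 and 9.90 on the vehicle for FJ9. The leukocyte adhesion gene Vcam1 read 10.80 on Ad.GFP, 8.90 on the vehicle for ICG-001 and 9.56 on the vehicle for FJ9. An adenovirus was given on Ad.GFP alone, and its part in these values was not tested. Each of these 4 genes was also higher on the vehicle for FJ9 than on the vehicle for ICG-001. Ccl2 was highest on the vehicle for FJ9. The interferon-induced Ifitm3 read 12.78 on Ad.GFP, 12.63 on the vehicle for ICG-001 and 12.56 on the vehicle for FJ9. Like the 4 genes it was highest on Ad.GFP, but it was lowest on the vehicle for FJ9.

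The remaining genes were lowest on Ad.GFP. The stromelysin gene Mmp3 read 8.03 on Ad.GFP, 9.99 on the vehicle for ICG-001 and 9.92 on the vehicle for FJ9, close on both vehicles. The semaphorin gene Sema7a read 7.76 on Ad.GFP, 9.16 on the vehicle for ICG-001 and 9.87 on the vehicle for FJ9. The hair keratin gene Krt83 read 7.19 on Ad.GFP, 8.95 on the vehicle for ICG-001 and 9.34 on the vehicle for FJ9. The odorant receptor gene Or55b4 read 6.93 on Ad.GFP, 9.26 on the vehicle for ICG-001 and 9.26 on the vehicle for FJ9, also close on both vehicles. Cd28, a costimulatory receptor of T cells, read 7.65 on Ad.GFP, 8.80 on the vehicle for ICG-001 and 9.70 on the vehicle for FJ9. For comparison, the T cell receptor complex gene Cd3e read 6.93 on Ad.GFP, 6.79 on the vehicle for ICG-001 and 7.04 on the vehicle for FJ9. Cd3e exceeded the yardstick on Ad.GFP and on the vehicle for FJ9.

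**Figure D5:**
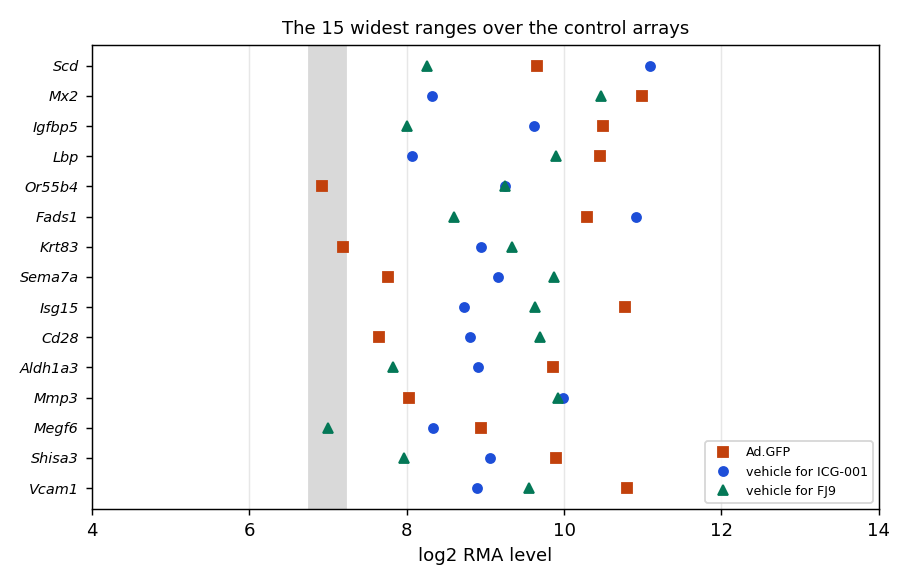
Log2 RMA level on each control array for the 15 genes above the yardstick with the widest range, in order of range, with the yardstick of 6.76 to 7.23 as a grey band. Squares are Ad.GFP, circles the vehicle for ICG-001 and triangles the vehicle for FJ9. Ranges run from 2.83 for Scd to 1.90 for Vcam1, and Ad.GFP is the highest or the lowest array for every gene but Scd and Fads1.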

How the data were processed

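The deposited values are log2 expression values, which the authors made with Affymetrix Expression Console and its RMA method (per the submitters' processing notes) for total RNA labelled with a whole-transcript kit, per the labels' protocols. No version is stated there. RMA subtracts background, brings arrays to a common distribution and summarises probes. The deposited control columns still differed in their medians over 26988 probe sets (7.11 on Ad.GFP, 7.28 on the vehicle for ICG-001, 7.15 on the vehicle for FJ9), and 222, 49 and 58 values lay within 0.01 of a floor at 4.00. The number of arrays limits the precision, and no rescaling was applied.

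Gene names come from the platform annotation, which gave 15092 probe sets 1 symbol and 323 several, and left 11573 unnamed. Entrez identifiers of 15062 matched RefSeq genes of GRCr8, used for names alone, and 0 symbols changed. This gave 14322 named genes. Where a gene had several probe sets (497 genes), the one with the highest mean over all 6 arrays stood for the gene, the sole use of the treated arrays. Levels, ranges over the 3 control arrays, ranks, percentiles and counts were computed with Python 3.11.15, numpy 2.4.6 and pandas 2.3.3, and drawn with matplotlib 3.10.9. The counting steps were tested on simulated data. Those data had less spread between arrays than the control arrays, so they check the counting and give no error rate here. With 1 array per group there was no test.

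The yardstick was the 95th percentile of 1237 genes with olfactory or vomeronasal receptor symbols. Olr1, the oxidised LDL receptor of rat, matched the symbol pattern and was removed after its value was seen. The 36 gene lists hold 932 symbols, of which 792 were measured. Named were the 50 highest genes, every member of the stellate marker, collagen, PDGF and TGF-β receptor and Frizzled and LRP lists, up to 8 highest and 4 lowest of other lists, the 15 widest ranges above the yardstick and the 5 highest of each family, as far as they add to the text. Arrays, gene lists and rules were chosen with earlier results of these data known. Alternatives were other scalings, probe set rules, yardsticks and folds, and leaving out each array.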

Additional observations from a re-analysis of the deposited data

How the results depend on the processing

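The count of 7943 genes above the yardstick stayed within 1.5 times under other scalings, other probe set rules, yardsticks at the 90th (8952) and 99th (5848) percentile and with 1 array left out (8080 to 8465). With the 95th percentile of genes of other organs it was 3101. Of 741 distinct measured list members, leaving out the genes of other organs, 263 were above that value. With the main yardstick 458 of the 741 were above, where 7943 of all 14322 named genes were (55.5%). The count of 4843 genes spanning 1.5-fold became 1152 at 2-fold and 1506 among genes above the yardstick, and it was 1533 without Ad.GFP, 2647 without the vehicle for ICG-001 and 3175 without the vehicle for FJ9. Fewer arrays narrow a range by construction. Of 40 lists and families, 24 changed their count by over 1.5 times with the yardstick from other organs, 9 at the 99th and 7 at the 90th percentile, 3 without Ad.GFP, 2 without the vehicle for ICG-001 and 0 without the vehicle for FJ9 or under the scalings and probe set rules. The median of the stellate cell markers lay between 12.35 and 12.46, and 44 to 50 of the 50 highest genes stayed among the 50 highest. Genes with several probe sets can disagree, as Klf5 did at 8.08 and 5.87. No paired analysis was possible because each group holds 1 array. Low signals cannot be told from background without detection calls.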

Other observations

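Some genes best known from other tissues gave signals far above the yardstick, and those named here were chosen after their values were seen. Olr1, the receptor of oxidised LDL on endothelium and macrophages, read 11.68 on Ad.GFP, 12.25 on the vehicle for ICG-001 and 12.52 on the vehicle for FJ9, at rank 123 of 14322 named genes. Prm1, the sperm protamine gene, read 11.17 on Ad.GFP, 11.22 on the vehicle for ICG-001 and 11.06 on the vehicle for FJ9, with a range of 0.16. The fast muscle troponin gene Tnnt3 read 9.37 on Ad.GFP, 9.91 on the vehicle for ICG-001 and 9.56 on the vehicle for FJ9. The intestinal apolipoprotein gene Apoa4 read 9.58 on Ad.GFP, 9.58 on the vehicle for ICG-001 and 8.41 on the vehicle for FJ9. The yardstick was set from the 1237 chemosensory receptor genes themselves, so by construction 62 of them exceeded it on each array. Of the 1237, 40 (3.23%) were above it on all 3 arrays, a count that could not exceed 62. This count therefore does not by itself show receptor transcripts. The highest of these genes were Or4c58 (9.50, 9.19 to 9.86) and Or12j2b (9.28, 9.18 to 9.37).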
